A study of Mus musculus with 15 samples.

Results

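MicroRNA levels in mouse CD4 T cells were compared between a second and a first stimulation through the T cell receptor. The comparison used 4 of the 15 arrays of the series. On 2 arrays, cells had been activated once, rested, and then restimulated for 18 h. On the other 2 arrays, cells had been under their first stimulation for 24 h. These arrays were chosen by the treatment given in their labels and not by a measured value, though earlier results of these data were known.

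All cells were CD4 T cells from the spleen and lymph nodes of C57/B6 mice aged 6-8 weeks, isolated on magnetic beads coated with CD4 antibody. Stimulation was on plate-bound anti-CD3, which engages the signalling part of the T cell receptor, and CD28 antibody, which engages a costimulatory receptor. The restimulated group came from resting day 7 cells. The label of the day 7 group gives 65 h of stimulation followed by rest until day 7 in medium with IL-2, a T cell growth factor. The remaining arrays held naive cells (2 arrays), cells at 6, 12, 42 and 65 h of the first stimulation (2 arrays each) and rested day 7 cells (1 array). Each slide carried 1 array of every group except the day 7 group, which was on slide 1 only, so that restimulated and 24 h cells could be set against each other on the same slide.

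MicroRNAs are short RNAs that guide Argonaute proteins to messenger RNAs and lower their translation and stability. In CD4 T cells they restrain activation, tune proliferation, and shape how an effector cell behaves after it has left quiescence. A naive cell enters its first stimulation from quiescence, whereas a rested effector cell meets the second after a round of division and differentiation. The sources used here pair no probe with a microRNA and hold no probe sequence, so probes are given by ID, no more than 2 in each direction, and the labelled cell type was not checked against its markers. The arrays were hybridised with RNA from whole cultures, in which fewer cells of a type and less RNA per cell cannot be told apart.

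Of the 2191 probes in the deposited table of log2 values, 693 were tested. Testing required that the scanner marked over 50% of a probe's spots as well above background on both arrays of at least 1 group. Nothing in the labels says that the 2 arrays of a state came from different mice or cultures. The p-values below therefore measure array-to-array spread, which may be technical, and the small number of arrays sets the precision. Between 640 and 950 of the 2500 probes on an array were above background on the 14 arrays used in the fit, and both ends of that range were restimulated arrays, 640 on slide 1 and 950 on slide 2. The 24 h arrays had 778 on slide 1 and 723 on slide 2. The first 42 h array was left out of the fit because its column in the deposited table had a rank correlation of 0.459 with its scanner values, against at least 0.999 on each of the other arrays.

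Restimulated cells differed from cells at 24 h of first stimulation at 107 of the 693 tested probes, or 15.4%. Among them 48 were higher in restimulated cells (6.93% of those tested) and 59 were lower (8.51%), by limma with slide as a block and Benjamini-Hochberg adjustment at 0.05. The probes that rose had a median difference of 1.43 on the log2 scale, which is 2.70-fold, and ranged from 0.56 to 5.20. The probes that fell had a median of -1.19, which is 2.28-fold, and ranged from -0.61 to -6.82. Over all tested probes the median difference was -0.05. This value depends on how the columns are scaled, as given below, and does not measure an overall change.

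The count of calls rested heavily on which arrays entered the fit. Leaving out the 24 h array of slide 1 (the first) gave 20 higher and 16 lower, and leaving out that of slide 2 gave 25 and 35. Leaving out the restimulated array of slide 2 (the first) gave 82 and 39, and leaving out that of slide 1 gave 66 and 71. No probe called in the full fit was called in the opposite direction in any of these. They share arrays with the full fit, and a reversed sign short of the threshold was not counted. The balance also turned on the scaling. The scanner's processed signal, scaled on the probes above background on every array of the fit, gave 100 higher and 45 lower among the same 693 probes. That is 69.0% higher, against 44.9% in the deposited values, and the median of those probes moved to 0.24. Scaled on all probes instead, the same signal gave 51 higher and 87 lower among 882 tested probes (37% higher), with a median of -0.08. Without the slide block the counts were 36 and 28 (56.2% higher).

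A difference of more than 2-fold was found at 39 of the 48 probes that rose, of more than 4-fold at 15, and of more than 8-fold at 8. Among the 59 that fell, 37 differed by more than 2-fold, 8 by more than 4-fold and 4 by more than 8-fold. Both restimulated arrays lay above both 24 h arrays at all 48 of the former, a pattern seen at 17.2% of all tested probes. They lay below both 24 h arrays at 58 of the 59 latter, against 31.3% of all tested probes. All 107 called probes differed in the same direction on both slides, as did 443 of all 693 (63.9%). The calls were made on these same 4 arrays, so the counts of separation and shared direction among called probes are largely fixed by the call.

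Few probes went from background to signal or back. Of the 48 that rose, 37 were well above background on all 4 arrays, 5 on only 1 of the 24 h arrays, and 6 on neither. For those 6 the rise has only a lower bound, from at least 1.58-fold to at least 4.56-fold. Such a bound takes, on each array of the dimmer group, either the probe's own value or the lowest value of any probe well above background, whichever is higher, and compares their mean with that of the brighter group. Of the 59 that fell, 50 were above background on all 4 arrays, 7 on only 1 restimulated array, and 2 on neither, with falls of at least 1.35-fold and at least 4.31-fold. Calls were unevenly spread over brightness: with the tested probes ranked by mean value and cut into 3 classes of 231, the dimmest held 4 that rose and 1 that fell, the middle 21 and 17, and the brightest 23 and 41.

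The probe UCSF033_000542 rose most in restimulated cells among called probes above background on all 4 arrays. Its log2 value at 24 h was 6.89 on slide 1 and 7.11 on slide 2, and in restimulated cells it was 10.09 on slide 1 and 11.18 on slide 2. The groups did not overlap, and both restimulated arrays were more than 8-fold above the 24 h array of their slide. The fitted difference was 3.64 (SE 0.50, 95% interval 2.46 to 4.81), which is 12.4-fold, with a limma adjusted p of 0.00293. Naive cells gave 5.76 and 5.87, and the day 7 array gave 11.79, so the rested cells already lay above both restimulated arrays.

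UCSF033_000812 had the largest rise among called probes above background on all 4 arrays with an ID more than 10 away from UCSF033_000542. It stood at 5.64 on slide 1 and 5.31 on slide 2 at 24 h, and at 9.21 and 8.01 in restimulated cells. Its values up to 24 h hardly moved, with 5.97 and 5.73 in naive cells and 5.67 and 5.41 at 12 h. The difference was 3.13 (SE 0.27, 95% interval 2.51 to 3.75), or 8.76-fold, with a limma adjusted p of 0.000315. At 65 h it had reached 7.40 on slide 1 and 6.91 on slide 2, and at day 7 it was 9.33, close to the restimulated array of the same slide. On the scanner's processed signal, from which background is subtracted, its difference was 4.36, so the deposited values give the smaller fold.

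UCSF033_000781 fell most of all tested probes. It read 14.75 on slide 1 and 14.21 on slide 2 at 24 h, and 8.31 and 7.01 in restimulated cells. The difference was -6.82 (SE 0.45, 95% interval -7.87 to -5.76), which is 113-fold, with a limma adjusted p of 0.000178. The fold was 73.4 without the restimulated array of slide 2, 173 without that of slide 1, and 74.0 after normexp and quantile normalization of the scanner signal. The probe was at 15.84 on both naive arrays, so that 24 h of first stimulation had taken it only a small part of the way down. At 65 h it was at 10.98 on slide 1 and 10.28 on slide 2, and at day 7 at 10.78, above both restimulated arrays.

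UCSF033_000800 read 10.16 on slide 1 and 9.34 on slide 2 at 24 h, and 7.00 and 6.64 in restimulated cells. The difference was -2.93 (SE 0.28, 95% interval -3.59 to -2.27), or 7.63-fold, with a limma adjusted p of 0.000497. Its course was not the same as that of the preceding probe: it was already at 6.59 and 7.00 at 65 h on slides 1 and 2, within the range of the restimulated arrays or just below it, and stood at 7.99 at day 7. All 4 of these probes kept their direction and passed the threshold under every alternative that was run.

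**Figure D1:**
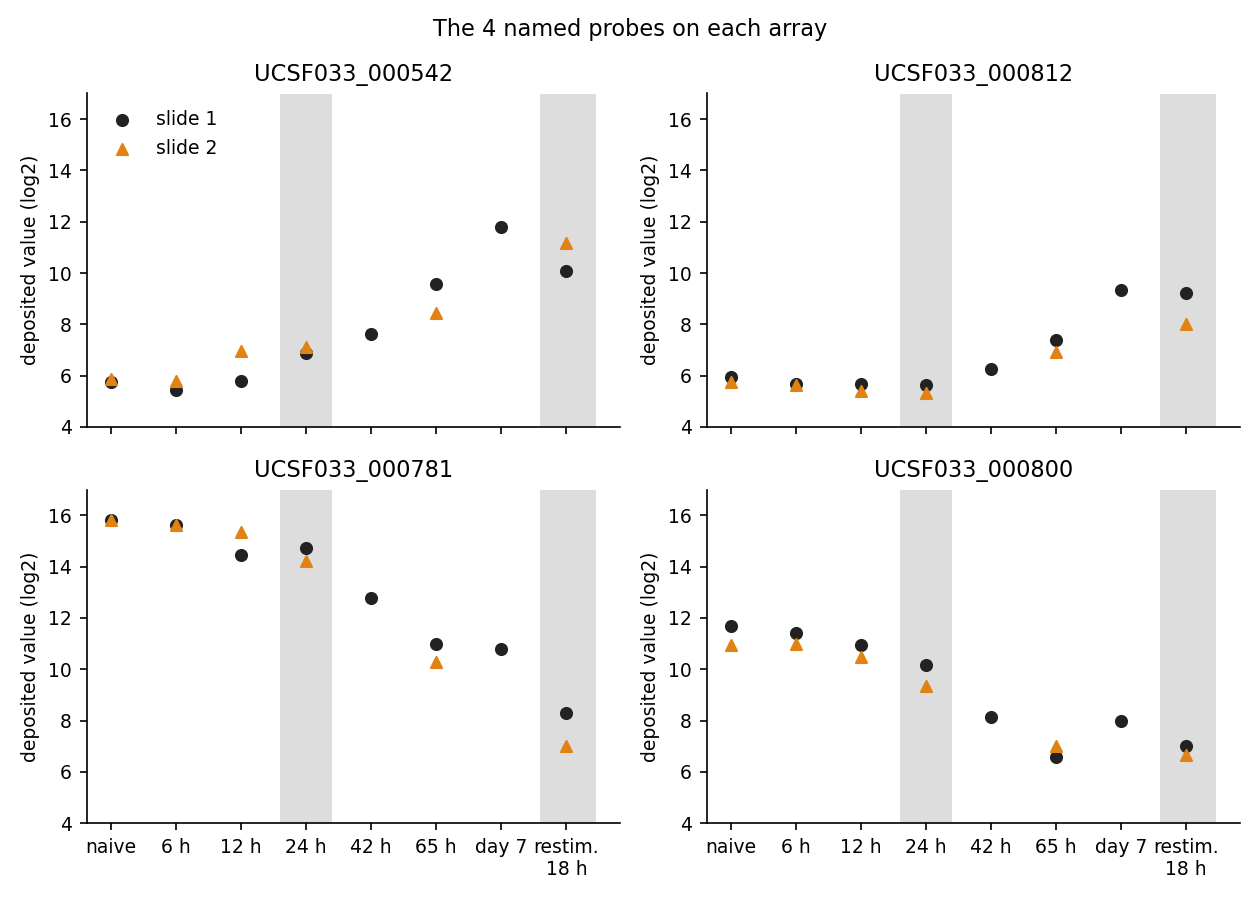
Deposited log2 value of the 4 named probes on each of the 14 arrays of the fit, in the order of the culture, with circles for slide 1 and triangles for slide 2 and the 2 compared groups shaded. UCSF033_000542 and UCSF033_000812 lie lower at 24 h than in restimulated cells on both slides, UCSF033_000781 and UCSF033_000800 lie higher, and on slide 1 the day 7 array is nearer to the restimulated array than to the 24 h array at all 4 probes.

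Larger rises than these were measured at 3 probes with consecutive IDs, picked out here after their values were seen. On slide 1 they read 4.95 to 5.01 at 24 h and 10.84 to 10.98 in restimulated cells. On slide 2 they read 4.61 to 4.68 and 8.96 to 9.11. Their fitted differences were 5.10 to 5.20, and each was well above background on both restimulated arrays but only 1 of the 24 h arrays. After UCSF033_000781, the largest fall was -5.92, at a called probe within 5 ID numbers of it. A pair of probes with consecutive IDs, also chosen after their values were seen, fell by 5.13 and 4.81 on the log2 scale. The pair was above background on only 1 restimulated array.

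Called probes often had consecutive IDs. The tested probes as a whole also include runs of consecutive IDs, and how often was not counted, so the runs below are a description only. The 48 that rose formed 28 runs, of which 13 were single probes and 15 held at least 2 probes, up to 3. The 59 that fell formed 40 runs, 28 of them single probes and 12 of at least 2, up to 4. UCSF033_000812 lay in a run of 3 whose differences were 3.08 to 3.13, nearly the same value 3 times. UCSF033_000781 lay in a run of 4 in which the differences spread from -6.82 to -1.57, while UCSF033_000800 had no called probe among its 8 tested neighbours within 5 ID numbers. Whether neighbouring IDs detect the same or related microRNAs cannot be read from these files, so 107 called probes is not a count of microRNAs.

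The position of a probe in the ID series also divided the calls. In ID numbers 310 to 1400, a boundary set after the values were seen, 48 probes rose and 56 fell of 432 tested (24.1%). In ID numbers 1401 to 2500, none rose and 3 fell of 261 tested (1.15%), with differences of -0.92, -0.83 and -0.72. In the lower range the differences on the 2 slides had a Pearson correlation of 0.86 across the 432 probes and 337 (78.0%) went the same way. In the upper range it was -0.18 across 261 probes and 106 (40.6%) went the same way. These correlations describe probes of the same 4 arrays, which are not independent replicates.

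The 2 restimulated arrays were also further apart in the upper range. Their root mean square (RMS) difference was 0.87 log2 there and 0.66 in the lower range, and it was 0.43 and 0.37 between the 24 h arrays. Among value-table probes of the upper range, 167 were above background on the slide 1 restimulated array and 307 on the slide 2 array, whereas the 24 h arrays had 226 and 200. In the lower range the restimulated arrays had 319 and 453. Restimulated cells were not alone in this: the same correlation between slides in the upper range was -0.21 for 65 h minus 24 h, 0.19 for 6 h, 0.38 for 12 h and 0.40 for naive cells, all of them against the same 24 h arrays. The part of slide and detection in the upper range was not tested.

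**Figure D2:**
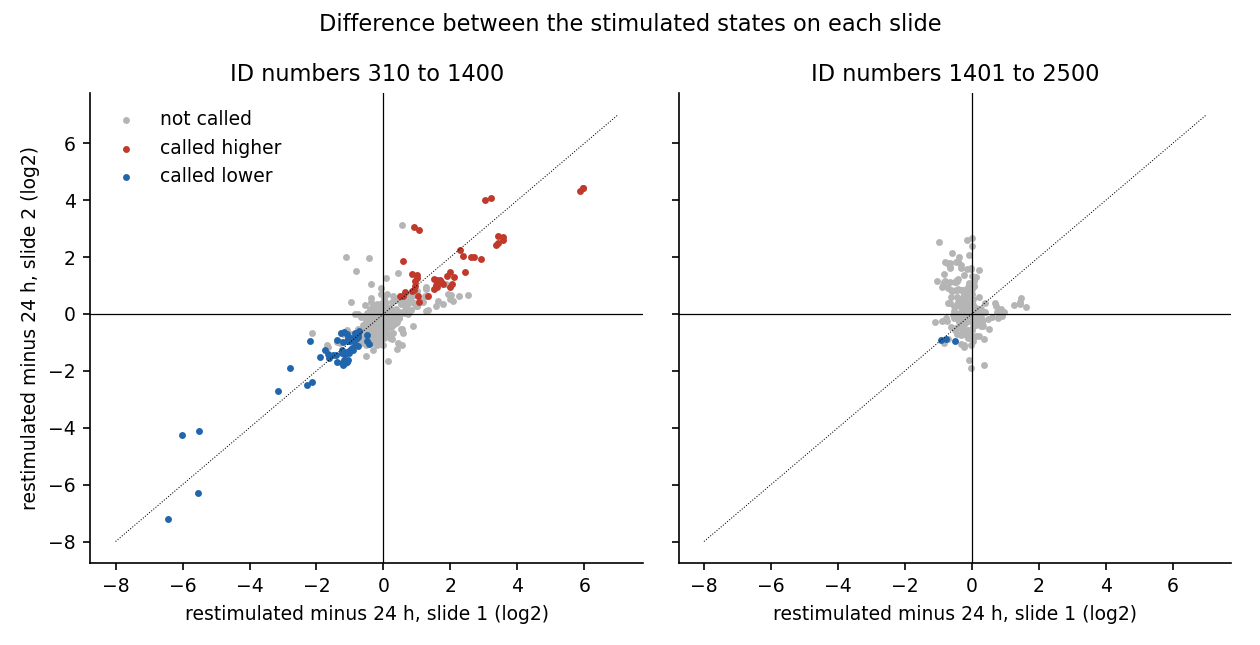
Difference of restimulated minus 24 h cells (log2) on slide 1 (horizontal) and slide 2 (vertical) for each tested probe, with ID numbers 310 to 1400 at left and 1401 to 2500 at right; the dotted line marks equal differences. In the lower range the points follow the line (Pearson correlation 0.86) and hold 104 of the 107 calls, and in the upper range they do not (-0.18).

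**Figure D3:**
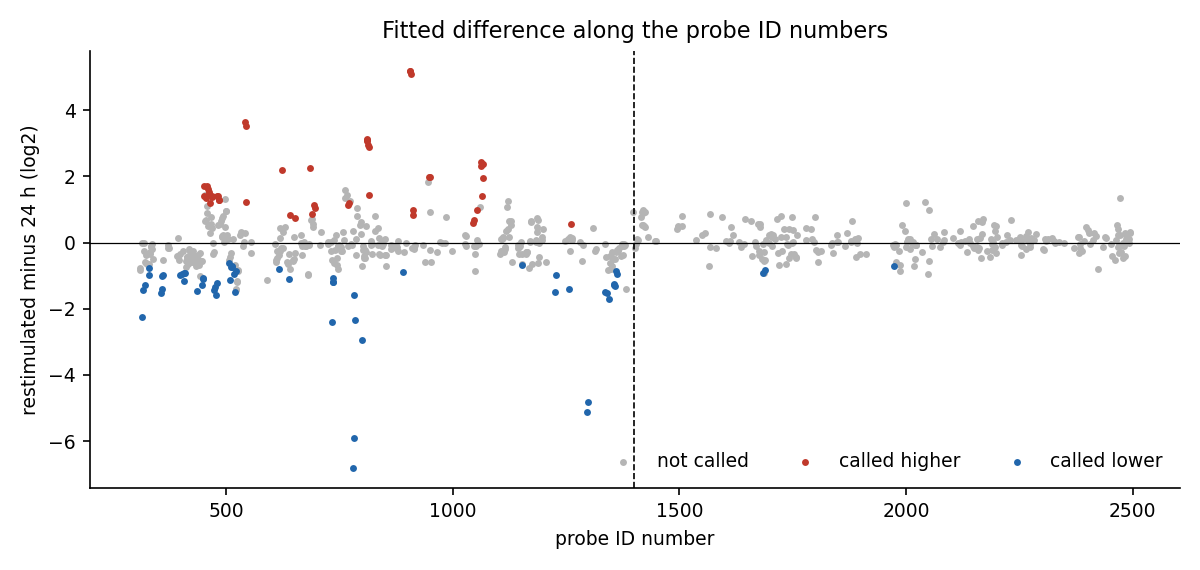
Fitted difference of restimulated minus 24 h cells (log2) against the ID number of each of the 693 tested probes, with called probes in colour and a dashed line at 1400. Calls stand singly or in short runs of neighbouring IDs below 1400, and 3 small falls are the only ones above it.

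Because the slides hold separate arrays, lists drawn from all 693 tested probes by the difference on one slide could be read on the other slide. The 50 lowest chosen on slide 2 had a median of -1.41 there and of -1.14 on slide 1, where 46 of 50 were lower in restimulated cells. The 50 lowest chosen on slide 1 had a median of -1.35 on slide 2, with 48 of 50 lower. Of all 693 tested probes, 435 were lower and 249 higher on slide 1, and 376 were lower and 313 higher on slide 2. The highest lists did not carry over equally. The 50 highest chosen on slide 1 had a median of 1.95 there and of 1.12 on slide 2, with 50 of 50 higher, whereas the 50 highest chosen on slide 2 went from 1.99 to 0.32 on slide 1, with 26 higher and 23 lower. The latter list held 22 probes from the upper ID range, against 4 in the former.

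Of the 432 tested probes with ID numbers 310 to 1400, 179 were higher and 250 lower on slide 1. Limited to that range, the 50 highest chosen on slide 2 had a median of 1.70 on slide 1, with 45 of 50 higher. The 50 lowest had a median of -1.15, with 47 of 50 lower. Since that boundary was set with both slides in view, these lists are a description and no independent check.

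The lists also show where these probes stood at each state, relative to the naive array of the slide on which they are read. On slide 1, the 50 lowest of all tested probes had medians of -0.94 at 24 h, -1.15 at 42 h and -1.73 at 65 h. Their medians were -1.47 at day 7 and -2.01 in restimulated cells. At 24 h, 37 of these 50 were already below naive, as were 358 of all 693 tested probes. The 50 highest had medians of 0.66 at 24 h, 0.33 at 42 h, 1.32 at 65 h, 2.19 at day 7 and 1.11 in restimulated cells. With ID numbers up to 1400 only, the 50 highest had medians of -0.0033 at 24 h, 0.34 at 42 h, 1.18 at 65 h, 1.66 at day 7 and 1.93 in restimulated cells, so the level at 24 h and the order of day 7 and restimulation both turned on the ID range. In both versions the median was higher at 65 h and at day 7 than at 24 h.

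On slide 2, which has no day 7 array, the 50 highest chosen on slide 1 from all tested probes stood at -0.10 at 24 h, 0.98 at 65 h and 1.32 in restimulated cells. The 50 lowest stood at -1.01, -1.64 and -2.28. Here the limit on ID numbers changed little, with -0.10, 1.09 and 1.34 for the highest and -1.06, -1.84 and -2.35 for the lowest.

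The step from day 7 to restimulated cells could be read on slide 1 only. Of all 693 tested probes, 334 were below day 7 and 354 above. The 50 lowest of all tested probes had a median of -0.37, with 38 of 50 below day 7, after -0.80 from 24 h to day 7. The 50 highest had a median of -0.43, with 38 of 50 below day 7, after a median of 0.88 from 24 h to day 7. With ID numbers up to 1400 only, the highest list gave 0.26, with 31 of 50 above day 7, so its direction depended on the ID range. Of all 432 probes in that range, 225 were above day 7. The step rests on the single day 7 array and has no replicate check.

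**Figure D4:**
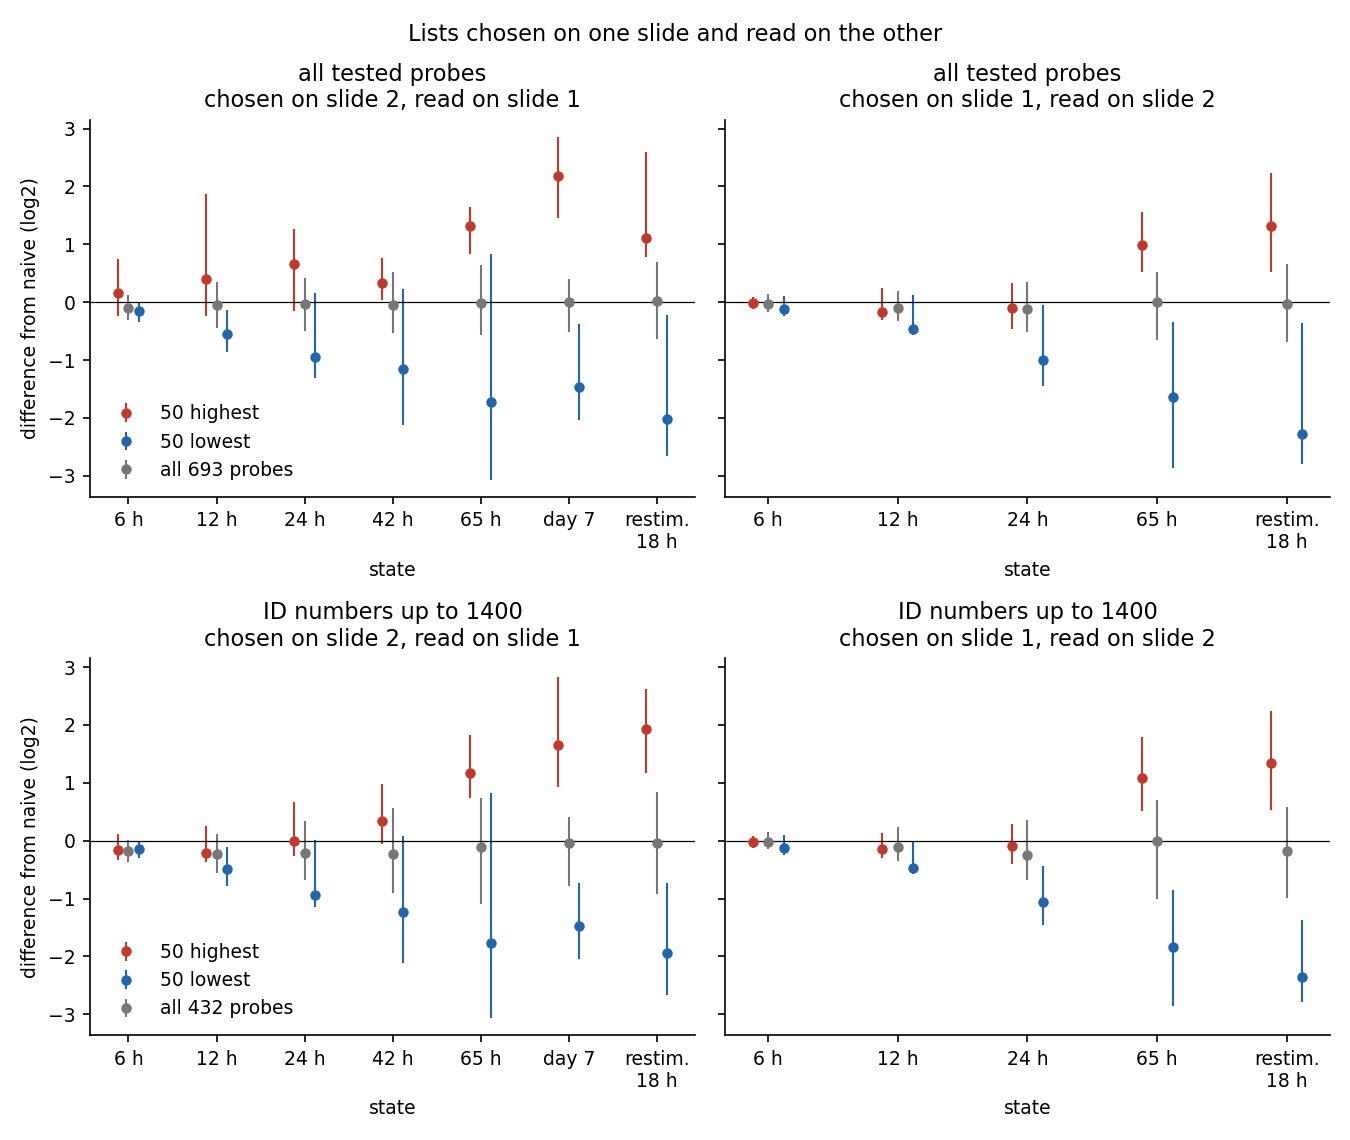
Median difference from the naive array of the same slide (log2) at each state for the 50 highest, the 50 lowest and all probes, with lists from all 693 tested probes (top) and from the 432 with ID numbers up to 1400 (bottom), chosen on one slide and read on the other; bars span the quartiles. The 50 lowest fall below naive in every panel, to between -1.94 and -2.35 after restimulation, while the 50 highest read on slide 1 are at 1.11 after restimulation in the upper panel and at 1.93 in the lower.

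Set against naive cells, the called probes fell into a few courses. These counts share the 24 h and restimulated arrays with the calls and are given as a description. Of all 693 tested probes, 358 on slide 1 and 400 on slide 2 were below naive at 24 h. In restimulated cells 337 and 361 were below naive. The courses and the day 7 positions below were not counted over all tested probes. Of the 48 that rose, 18 were above naive on both slides at 24 h and higher still after restimulation, 20 were below naive at 24 h but above it in restimulated cells, 9 had moved differently on the 2 slides at 24 h and were above naive after restimulation, and 1 was below naive in both. Of the 59 that fell, 51 were below naive at 24 h and lower still in restimulated cells. Another 4 were above naive at 24 h and below it in restimulated cells, 1 was above naive in both and 3 were mixed. On slide 1 the day 7 array lay between 24 h and restimulated cells at 28 of the 48 that rose and beyond the restimulated array at 20, and at 0 of them on the far side of 24 h. Among the 59 that fell, it lay between at 45, beyond at 6, and on the far side of 24 h at 8.

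Across all tested probes, restimulated cells were nearer to cells of 24 h and later than to naive cells and those of 6 h and 12 h. On slide 1 the RMS difference of the restimulated array was 1.34 log2 from naive, 1.33 from 6 h, 1.18 from 12 h, 0.998 from 24 h, 0.92 from 42 h, 0.85 from 65 h and 0.62 from day 7. On slide 2 it was 1.35 from naive, 1.23 from 6 h, 1.13 from 12 h, 1.002 from 24 h and 0.75 from 65 h. By this measure the distance fell with each later state on both slides. By the number of probes more than 2-fold from the restimulated array it did not on slide 1, with 232 for naive cells, 115 for 24 h, 135 for 42 h, 117 for 65 h and 73 for day 7. On slide 2 there were 229 for naive cells, 142 for 24 h and 115 for 65 h. For scale, the 2 arrays of one state differed between slides by 0.39 at 24 h, 0.74 at 65 h and 0.75 in restimulated cells. Differences between slides also hold any slide effect, which distances within a slide, such as 0.62 for day 7, do not. The values therefore cannot show whether day 7 and restimulated cells differ by less than replicate arrays do. These distances on a slide share 1 restimulated array and are descriptions across 693 probes.

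**Figure D5:**
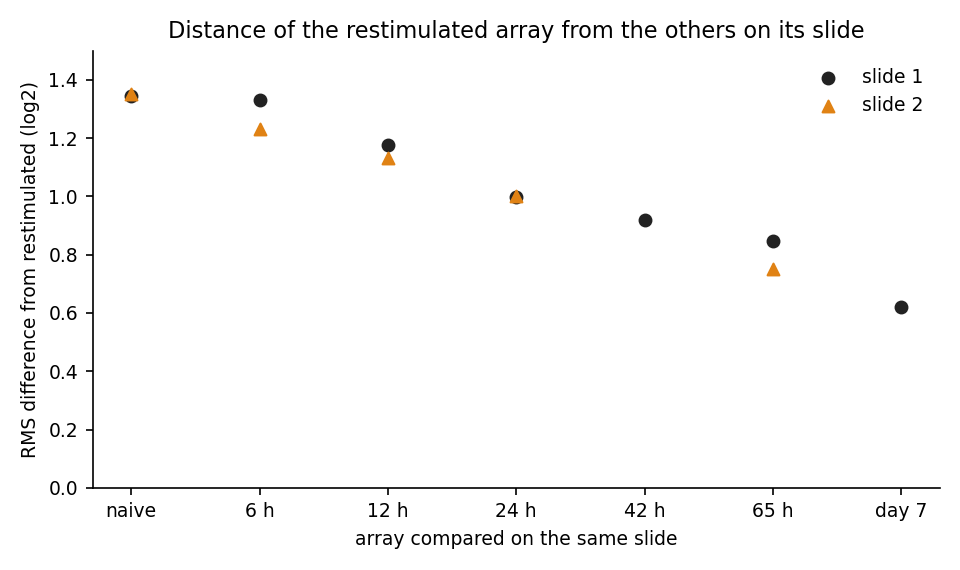
Root mean square difference (log2, over 693 probes) between the restimulated array and each other array on its slide, with circles for slide 1 and triangles for slide 2. The distance falls from 1.34 and 1.35 for naive cells to 0.62 for day 7 cells on slide 1 and 0.75 for 65 h cells on slide 2.

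The 2 stimulations had lasted 18 h and 24 h, and no array of the first stimulation was taken at 18 h. With 12 h in place of 24 h, an alternative added after the data were seen, 61 probes were higher in restimulated cells (8.80% of the 693) and 83 lower (12.0%), by the same limma fit. All 48 probes that were higher than at 24 h were also called higher than at 12 h, and 50 of the 59 lower ones were called lower, with all 59 in that direction. Both comparisons use the same restimulated arrays. Both restimulated arrays lay above all 4 arrays of 12 h and 24 h at 48 of the 48 probes, against 13.4% of all tested probes, and below all 4 at 56 of the 59, against 21.6%. The calls were made on the 24 h arrays, so these counts are largely fixed by the call.

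Each stimulation was also measured from its own starting state, as restimulated minus day 7 against 24 h minus naive. No probe passed limma with Benjamini-Hochberg adjustment (0% of 693), while 85 had an unadjusted p under 0.05. The median SE of this difference of differences was 0.38, against 0.24 for restimulated minus 24 h. At the named probes it was -2.50 for UCSF033_000542, -0.14 for UCSF033_000812, -1.62 for UCSF033_000781 and 0.60 for UCSF033_000800, with limma adjusted p-values of 0.281, 0.922, 0.411 and 0.582. Without the first restimulated array (slide 2), 18 probes passed. The count stayed at 0 when each other array was left out, except the day 7 array, without which this contrast cannot be formed. The fit takes the spread of the lone day 7 array from the replicated states, and a count of 0 does not show that the 2 responses were alike.

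For the 586 probes that were not called between the stimulated states, the precision differed. At 332 of them the 95% interval of the difference lay within 1 log2 either way, and at the other 254 it reached past that limit. At the 332, a change of more than 2-fold in the deposited values lay outside the interval. Those values hold background, which makes differences of dim probes smaller, so the change in RNA at such probes is not bounded. The median SE was 0.18 in the dimmest 231 tested probes and 0.29 in the brightest 231. Of the tested probes, 32 were above background on none of the 4 arrays compared. The median half-width of the interval over all tested probes was 0.55. The largest fitted difference among the uncalled probes was 1.85, with 0.55 on slide 1 and 3.14 on slide 2.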

How the data were processed

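Total RNA (50 ng, Trizol) was labelled with Cy3 by a locked nucleic acid kit for 1-colour Agilent arrays, per the labels and the series design. The authors deposited the intensity of 15665 spots for each of 15 arrays. The software was Feature Extraction, version 10.1.1.1 in the file headers and 10.6 in the submitters' processing notes. The deposited log2 value table covers 2191 of 2500 probes. The authors' steps behind that table are not given in the sources used here. Its columns followed the ranks of the median spot signal without background subtraction and had nearly equal medians (4.38 to 4.41). Those medians are over all 2191 probes, most of which were not above background on the arrays of the fit. An overall rise or fall of all probes may not show, and background left in the values makes folds of dim probes smaller. Its exact scale stays unknown.

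The deposited values of 14 arrays were fitted with limma 3.58.1 (lmFit, eBayes) in R 4.3.3, with group and slide as terms and 5 residual degrees of freedom. The Benjamini-Hochberg threshold was 0.05, over 693 probes. Slides were read from the file headers. The 2 arrays of a group carry no number in the labels, and "first" and "second" follow their deposited order. A probe counted as above background when over 50% of its spots were so marked. Named probes were those with the largest difference in each direction among called probes above background on all 4 arrays, then the next with an ID more than 10 away. The procedure was also run on simulated data with independent noise for each probe and array, which does not test the calls made here. Alternatives changed the slide block, arrays, filter, scaling, source of the values and variance model.

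The members, lists and tests were chosen with earlier results of these data known. The lists of microRNAs (activation-induced, quiescence-associated, let-7, effector and anergy families) and of cell type markers could not be applied, since no table used here names the probes, and they have no result.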

Additional observations from a re-analysis of the deposited data

Results flagged for a closer look

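A signal appeared in data that the comparison does not use. The scanner files hold 309 probes that are outside the deposited value table. On the scanner's processed signal, 189 of them could be tested, and 59 (31.2%) differed between restimulated and 24 h cells by limma at an adjusted p under 0.05. In the same fit 210 of all 882 tested probes (23.8%) were called, and 151 of the 693 in the value table (21.8%). Of these, 20 were higher in restimulated cells and 39 were lower. Nearly all were read from a single spot (19 of the 20 and 38 of the 39), whereas no probe of the value table had 1 spot. They enter no count of the report, and the part of having 1 spot was not tested.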

How the results depend on the processing

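With 2 arrays a group, the number of calls varied widely between settings. No alternative called a probe of the 107 in the opposite direction. The alternatives share arrays with the main fit, and a reversed sign short of the threshold was not counted, so this is no measure of how firm the directions are. Against 48 higher and 59 lower, the counts were 36 and 28 without the slide block, and 9 and 7 with only the 4 arrays, where 1 residual degree of freedom is left and 149 probes had an unadjusted p under 0.05. They were 124 and 86 on the scanner's processed signal over all its probes (59.0% higher), 100 and 45 on that signal over the probes of the value table, and 78 and 115 after normexp and quantile normalization of the scanner signal. Of the 107 calls, 64, 16, 92, 90 and 104 were called again in these 5 fits. Leaving out each array in turn gave 20 to 82 higher, 16 to 71 lower, and 0 to 18 for the second response minus the first, for which the day 7 array cannot be left out. A group left with 1 array took its spread from the others. The other alternatives (all 15 arrays, no filter or a stricter filter on dim probes, recentred columns, the percentile over all probes, a trended robust variance) kept both counts within 1.5 times of the main ones. So did 3 settings added after seeing the data (12 h in place of 24 h, the mean of both, and ID numbers up to 1400 only), with 60 to 67 higher and 65 to 85 lower. The median over tested probes moved from -0.05 to 0.10 and 0.24 on the scanner's processed signal scaled on probes above background on every array. With the percentile over all probes, that signal gave 51 higher and 87 lower (37% higher) and a median of -0.08. A fit of the second response minus the first on the 4 arrays alone could not be made, since they lack both starting states. The labels give the arrays of a group no replicate numbers, and the pairing used was that by slide, in the main fit and in that on the 4 arrays. Dim signal limits 8 of the 107 calls to bounds.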
